A study of Mus musculus with 12 samples.

Results

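The change shared by 2 kinds of CD4 T cell from mice labelled Dcaf1-deficient was measured by RNA sequencing. The cells were CD4+CD25+ regulatory T cells (Treg, which restrain immune responses) and CD4+ conventional T cells (Tconv), sorted by flow cytometry from the spleen of C57BL/6 mice. Of the 12 libraries of the series, 8 were used, taken by their sample titles: 2 Treg and 2 Tconv libraries from wild-type mice of 2 months, called young, and 2 Treg and 2 Tconv libraries from mice of 2 months labelled Dcaf1-deficient. The other 4 libraries, 2 Treg and 2 Tconv from wild-type mice of over 18 months, are given as levels only. The labels name no allele, Cre driver or deleted exon, do not say whether mice were pooled, and do not say whether a Treg and a Tconv library came from 1 mouse, so p-values measure the spread between these libraries. A gene was called where edgeR's quasi-likelihood test of labelled against young, with cell type as an additive term, gave a Benjamini-Hochberg adjusted p under 0.05 and the gene was shifted the same way from the young mean in all 4 labelled libraries. Only autosomal genes were counted, 8654 of the 9055 genes that passed a filter on low counts in a table of 13404 rows. Levels are CPM, counts scaled to a common library total, and differences are log2 fold changes, labelled against young, with their standard error (SE).

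DCAF1 (gene symbol Vprbp in the table) is a substrate receptor of the ubiquitin ligases built on CUL4A or CUL4B and the adaptor DDB1. It hands chosen proteins to the ligase for ubiquitination, and it is also the host protein that the HIV accessory protein Vpr binds. In T cells the protein is known for its part in the growth and cell cycle entry that follow activation, and the title of the series places it in Treg senescence through reactive oxygen species.

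The libraries held 18358477 to 26852448 estimated counts, so that 3 counts over a group equal 0.0575 to 0.0758 CPM. Several facts of the libraries touch every count below. Xist, the RNA of the inactive X of females, was at 1.37 to 2.64 CPM in the 4 young libraries and in labelled Treg 1, and at 1661 CPM in labelled Treg 2 and 1317 and 1336 CPM in labelled Tconv, so sex and label cannot be told apart except through labelled Treg 1. The sample titles carry a tag, L4 in the Treg libraries used and in young Tconv 1, and L5 in young Tconv 2 and labelled Tconv. The labels do not say what the tag stands for, and in Tconv it partly coincides with the label. Erythroid and macrophage markers were higher in the labelled libraries, while for B cell markers this held in Tconv and the groups overlapped in Treg. Over 15 erythroid markers, 13 of them autosomal, the CPM of young Treg added up to 265 and 1787, and that of labelled Treg to 5714 and 12820. For Tconv the same sums were 149 and 294 (young) against 1721 and 1729 (labelled). Macrophage markers summed to 253 and 5222 CPM in young Treg against 15490 and 19053 in labelled Treg. In Tconv they summed to 30.6 and 340 CPM (young) against 1290 and 1380 CPM (labelled). B cell markers summed to 178 and 3495 CPM in young Treg against 3241 and 3358 in labelled Treg, and to 108 and 352 against 504 and 515 in Tconv. None of the erythroid and macrophage markers was at 0 in all 8 libraries, and their part in the results was not tested beyond the fits with a marker term. The T cell markers were present in every library (Cd3e 191 to 461 CPM, Cd4 550.2 to 1928 CPM), and the Treg factor Foxp3 was at 536 to 1423 CPM in the Treg and 47.6 to 80.6 CPM in the Tconv libraries. Aged Treg 1, which entered a test in 1 alternative only, stood apart from the other aged libraries at several of the genes below, with 22.5 CPM of Col6a4 against at most 0.166.

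Labelled and young libraries differed at a large share of the genes tested. With cell type as an additive term, 2534 of 8654 autosomal genes were called (29.3%): 1171 were higher in the labelled libraries (13.5%) and 1363 lower (15.7%). The increases were the larger ones. The median log2 fold change was 0.87 among the genes called higher and -0.44 among those called lower, against -0.01 over all genes tested. A change of at least 1 on the log2 scale was reached by 534 genes called higher and by 124 called lower. These were 6.17% and 1.43% of the 8654 genes tested. The labelled and young libraries did not overlap in either cell type in 1161 of 1171 genes called higher and 1354 of 1363 called lower. Those were 13.4% and 15.6% of the 8654. Without the test, 2111 genes (24.4%) and 2127 genes (24.6%) had no such overlap, higher and lower respectively, and 2860 (33%) and 2851 (32.9%) were shifted the same way in all 4 labelled libraries.

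How many genes were called depended on what else the fit held. With a term for the title tag 548 genes were called higher and 524 lower. With a term for the macrophage markers 49 genes were called higher and 17 lower, with a term for the erythroid markers 0 and 1, and with a term for sex 0 and 1. With the sex term the calls were lost at folds of about the same size in some genes described below, such as Ctse (-3.11 against -2.89) and Il1rl1 (1.73 against 1.59). In others the fold was smaller with this term, as for Trim12a (-2.30 against -3.57). Of the 124 named genes called, 0 turned their sign with the sex term. Leaving out labelled Treg 1 gave 446 and 290, and leaving out labelled Treg 2 gave 530 and 343; without young Tconv 1, labelled Tconv 1 or labelled Tconv 2 they were 545 to 578 and 454 to 550. The ribosomal protein gene Rpl29 was the 1 gene called in every fit, and 20 genes, Rpl29 among them, were called in every fit but those with the erythroid and the sex term.

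Dcaf1 itself, the gene the libraries are labelled by, had levels of 144 and 127 CPM (young Treg), 102 and 101.4 CPM (labelled Treg), 147 and 143 CPM (young Tconv) and 132 and 132 CPM (labelled Tconv) (Vprbp, mm10 chromosome 9, 106821874 to 106880992). Labelled and young libraries did not overlap in either cell type, and most of the transcript remained. The log2 fold change was -0.27 (SE 0.0713, edgeR adjusted p 0.0319). Vprbp lost its call with the tag term (adjusted p 0.0659), with each marker term, with the sex term (0.178), in the fit over 12 libraries (0.112) and without young Treg 2, labelled Treg 1 or 2, young Tconv 1 or labelled Tconv 1 or 2 (0.0513 to 0.107). Its log2 fold change was -0.30 with the tag term and -0.35 with the sex term, but -0.17 with the macrophage and -0.060 with the erythroid term. Counts summed over all exons cannot tell whether 1 of them was removed. The mice are therefore named by their label throughout.

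Genes of the ligase that DCAF1 serves were called about as often as other genes, in both directions. Of 37 listed genes of the CUL4 ligases, related cullins, other receptors and known DCAF1 partners, 28 autosomal ones were tested, 3 were called higher and 6 lower, against 13.5% and 15.7% over all autosomal genes, and the list's median log2 fold change was -0.06. The scaffold gene Cul4a had a log2 fold change of 0.05 (SE 0.0580, edgeR adjusted p 0.549), and its X-linked paralog Cul4b one of -0.28 (adjusted p 0.0182, not counted as autosomal). Ddb1 and Rbx1 were not analysed here. Among the members called, Ddb2, the receptor for ultraviolet damage, fell by 0.68, Tet3, a 5-methylcytosine oxidase, fell by 0.51 and Dcaf17, another receptor of the family, fell by 0.43 on the log2 scale. Mcm10, a replication factor that is a DCAF1 substrate, rose by 2.38 along with the other replication genes described below. The list had 1 higher and 1 lower call without labelled Treg 1, labelled Treg 2 or labelled Tconv 1, 1 and 2 without young Tconv 1 or labelled Tconv 2, and 2 and 4 without young Tconv 2.

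Rpl29 had the smallest adjusted p of the genes tested, although the folds of others, such as Mst1 and Col6a4 below, were larger. It encodes a protein of the large ribosomal subunit and lies on chromosome 9 (106429454 to 106431568), beside Dcaf1. It measured 742 and 715 CPM in the young Treg libraries, 34.1 and 31.6 CPM in the labelled Treg, 834 and 844 CPM in the young Tconv and 42.9 and 37.8 CPM in the labelled Tconv libraries. No labelled library came near a young one, and the replicates of each group lay close together. The log2 fold change was -4.42 (SE 0.0687, edgeR adjusted p 5.52e-07), with -4.47 in Treg and -4.38 in Tconv. It stayed between -4.44 and -4.34 with the tag, marker and sex terms and in the fit over 12 libraries, with adjusted p-values from 1.26e-06 to 0.0203. In the aged libraries Rpl29 was at 92.5 and 438 CPM in Treg and 605 and 495 CPM in Tconv. Reads of Rpl29 may be shared with its processed pseudogenes, which the authors' counting could split.

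**Figure D1:**
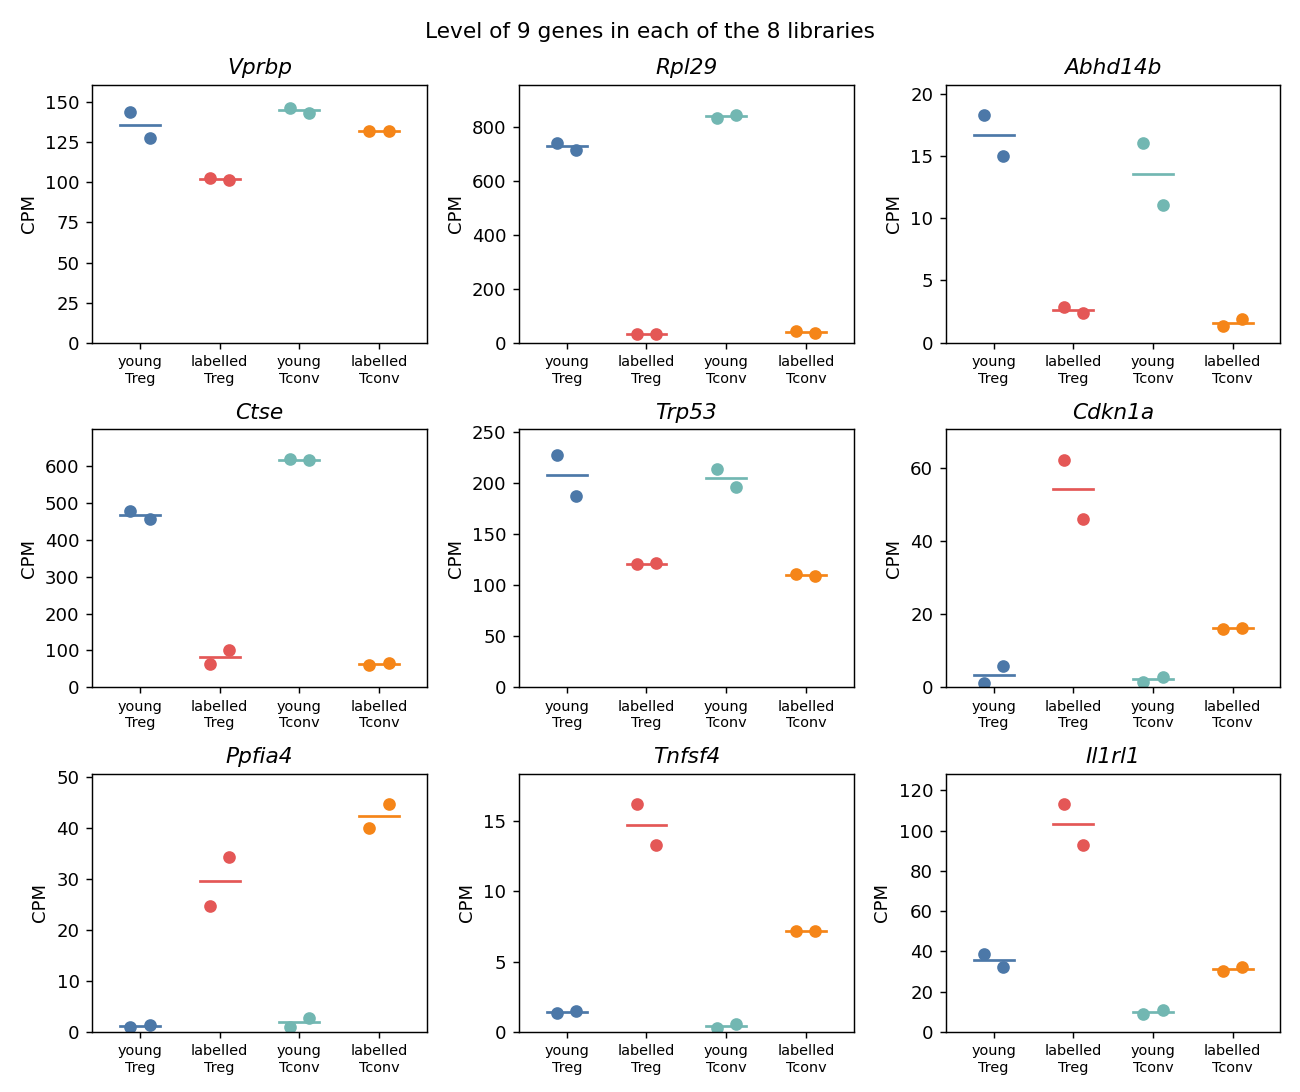
CPM (linear axes from 0) of 9 genes in the 8 libraries; each point is 1 library and each line the mean of the 2 libraries of a group, with young Treg, labelled Treg, young Tconv and labelled Tconv from left to right. Rpl29 sits at 715 to 844 CPM in the young and at 31.6 to 42.9 CPM in the labelled libraries, whereas Vprbp differs by far less.

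Mst1 and Abhd14b, also among the 20 genes, lie on chromosome 9 near Dcaf1, and each was lower in all 4 labelled libraries. Mst1, the gene of macrophage stimulating protein, measured 8.08 and 6.998 CPM in the young Treg libraries, 0.564 and 0.463 CPM in the labelled Treg, 9.31 and 9.55 CPM in the young Tconv and 0.0486 and 0.289 CPM in the labelled Tconv libraries (log2 fold change -4.66 with SE 0.526, adjusted p 0.00559 in edgeR). Abhd14b, which encodes a lysine deacetylase, went from 18.3 and 14.99 to 2.89 and 2.36 CPM in Treg and from 16.0 and 11.1 to 1.36 and 1.88 CPM in Tconv (log2 fold change -2.86, SE 0.211, adjusted p 0.00188). In neither gene did the groups overlap.

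Large increases lay in the same stretch of the chromosome. Col6a4, a collagen VI gene, measured 0.0469 and 0.389 CPM in the young Treg libraries, 29.2 and 28.9 CPM in the labelled Treg, 0.374 and 0.439 CPM in the young Tconv and 37.6 and 37.1 CPM in the labelled Tconv libraries (log2 fold change 6.73 with SE 0.403, adjusted p 0.00131 in edgeR). Bsn, which encodes the presynaptic protein Bassoon, rose by 1.57 (SE 0.175, adjusted p 0.00559). Within 10 Mb of the start of Dcaf1, 64 of 161 tested genes were called (39.8%), 27 higher and 37 lower, against 29.1% of the 8493 other autosomal genes. Of those 161 genes, 13 were called higher and 9 lower by at least 1, against 521 and 115 of the rest. The difference between these shares was not tested. Tmem108, a transmembrane protein gene in the window, had unlike values in the cell types: its level went from 6.43 and 6.83 to 3.59 and 2.61 CPM in Treg and from 8.89 and 8.84 to 0.340 and 0.481 CPM in Tconv. It had the smallest unadjusted interaction p of the genes named (0.000138, adjusted p 0.376).

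**Figure D2:**
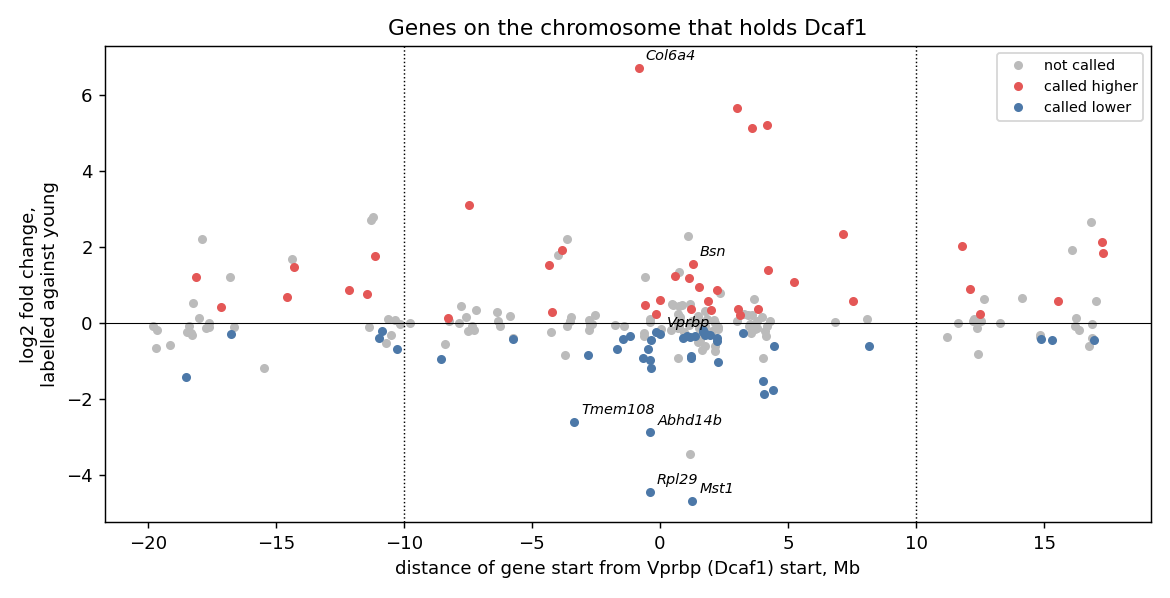
Log2 fold change (labelled against young) of tested genes on chromosome 9 by the distance of their start from that of Dcaf1, in Mb; dotted lines mark the 10 Mb window, and colours mark genes called higher, called lower or not called. Large changes of both signs, from Mst1 at -4.66 to Col6a4 at 6.73, lie within the window.

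Several genes with large changes lie near each other on chromosome 7. Trim12a, a TRIM family gene related to antiviral restriction factors, had levels of 204 and 183 CPM (young Treg), 36.2 and 7.66 CPM (labelled Treg), 261 and 242 CPM (young Tconv) and 16.6 and 14.5 CPM (labelled Tconv) (log2 fold change -3.57 with SE 0.484, adjusted p 0.00704 in edgeR). Trim5 fell by 3.37 and Mrpl48, a mitochondrial ribosomal protein gene, fell by 2.97 on the log2 scale. In all 3 genes labelled Treg 1 lay between the young libraries and labelled Treg 2: Trim5 was at 10.2 against 2.10 CPM and Mrpl48 at 10.2 against 2.31 CPM in those labelled libraries. Trim12c fell by 0.77 (SE 0.0473, adjusted p 0.00131), while its neighbour Trim34b rose from 1.64 and 2.20 to 15.4 and 20.2 CPM in Treg and from 1.92 and 1.65 to 23.7 and 27.99 CPM in Tconv (log2 fold change 3.53). Within 10 Mb of Trim12a, a window chosen after the values were seen, 32 of 90 genes were called (35.6%), against 29.3% over all autosomal genes, and this difference was not tested. The Trim genes, and Gvin1 and Art2b on the same chromosome, which fell by 2.53 and 2.81, have near-identical copies among which the authors' counting could split reads.

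Away from both windows, the largest decreases included those of Ctse and Lypd6b. Ctse, the aspartic protease cathepsin E, measured 478 and 456 CPM in the young Treg libraries, 64.2 and 102 CPM in the labelled Treg, 619 and 615 CPM in the young Tconv and 60.7 and 65.4 CPM in the labelled Tconv libraries (log2 fold change -2.89 with SE 0.219, adjusted p 0.00207 in edgeR). Some related proteases moved the other way: of 10 tested proteases of the endolysosome 4 were called higher, among them Ctsd with 1.27 and Ctss with 0.64. Ctse was the 1 called lower, and 5 were not called. The shares over all autosomal genes were 13.5% higher and 15.7% lower. Ctsd and Ctss are abundant in macrophages, and the 4 higher calls were 0 without labelled Treg 1 and 1 without labelled Treg 2, young Tconv 1 or labelled Tconv 1 or 2, while Ctse kept its call in every fit but those with the erythroid and sex terms. In aged libraries Ctse was at 55.0 and 59.7 CPM in Treg and 51.5 and 104 CPM in Tconv, close to the labelled levels. Lypd6b, a Ly6 family gene, fell by 2.93 (SE 0.149, adjusted p 0.00105), from 36.2 and 33.9 to 4.96 and 5.15 CPM in Tconv.

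The remaining decreases of the 20 genes were of moderate size. Trp53, which encodes the tumour suppressor p53, had levels of 228 and 187 CPM (young Treg), 120.2 and 121 CPM (labelled Treg), 213 and 196 CPM (young Tconv) and 111 and 109 CPM (labelled Tconv) (log2 fold change -0.84 with SE 0.0717, adjusted p 0.00309 in edgeR). The transcription factor genes Pou6f1 and Zfp329 fell by 0.87 and 0.80 on the log2 scale, and Trim12c is given above. All labelled libraries lay below all young ones of their cell type at each of these genes.

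The other 11 of the 20 genes were higher in all 4 labelled libraries. Ppfia4, a liprin scaffold gene, measured 0.939 and 1.25 CPM in the young Treg libraries, 24.7 and 34.4 CPM in the labelled Treg, 1.03 and 2.69 CPM in the young Tconv and 40.1 and 44.7 CPM in the labelled Tconv libraries (log2 fold change 4.63 with SE 0.321, adjusted p 0.0017 in edgeR). Tnfsf4, the gene of the costimulatory ligand OX40L, measured 1.36 and 1.47 CPM in the young Treg libraries, 16.2 and 13.3 CPM in the labelled Treg, 0.234 and 0.549 CPM in the young Tconv and 7.20 and 7.17 CPM in the labelled Tconv libraries (3.74, SE 0.298, adjusted p 0.00259). Il1rl1, which encodes ST2, the IL-33 receptor of tissue Treg, rose from 38.7 and 32.2 to 113 and 92.9 CPM in Treg and from 8.99 and 10.9 to 30.3 and 32.1 CPM in Tconv (1.59, SE 0.109, adjusted p 0.0017). At these 3 genes the labelled libraries lay above the young ones of their cell type without overlap. S100a4, a calcium-binding protein gene of memory and effector T cells, rose by 2.20, the G protein subunit gene Gna15 by 1.88, the lipid phosphatase gene Inppl1 (SHIP2) by 1.79 and the purine transporter gene Slc43a3 by 1.49. Popdc2 rose by 2.43, Oas1a by 1.19 and Tceb3, the Elongin A gene, by 0.63, and Trim34b is given above. These 20 genes were chosen after their values were seen, so their number is a description.

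The largest increases by fold were mostly genes of immature myeloid and red cells. Among the 15 largest with at least 4 CPM in a group were the neutrophil granule genes Prtn3, Mpo, Camp, Ngp and Ltf and the red cell genes Slc4a1, Aqp1 and Tspo2. Mpo, the gene of myeloperoxidase, measured 0 and 0.864 CPM in the young Treg libraries, 9.93 and 28.3 CPM in the labelled Treg, 0 and 0.0549 CPM in the young Tconv and 2.68 and 3.22 CPM in the labelled Tconv libraries. Of 12 tested neutrophil markers 8 were called higher, and of 13 erythroid markers 9, against 13.5% over all autosomal genes. Called higher were also 2 of 13 macrophage markers, 2 of 8 of CD8 T and NK cells and 2 of 8 of splenic stroma. Of plasma cell markers 1 of 7 was called higher, and of 6 platelet markers 1 was higher and 2 lower. Of the 11 B cell, 8 dendritic cell and 7 pancreatic acinar markers 0 were called. Sphk1, the sphingosine kinase 1 gene, was at 0 in all 4 young libraries, at 2.25 and 6.14 CPM in labelled Treg and at 0.292 and 0.529 CPM in labelled Tconv. Arntl2, a clock factor gene, was at 0.0468 to 0.302 CPM in young and 4.25 to 6.44 CPM in labelled libraries, and Col6a4 is given above.

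Genes of cell division rose as a block. Of 30 listed genes of mitosis 21 were tested and all 21 were called higher, with a median log2 fold change of 2.15, and of 31 listed genes of DNA replication 23 autosomal ones were tested and 21 called higher, with a median of 1.02. No member of either list was called lower. Over all autosomal genes 13.5% were called higher and 15.7% lower. Birc5, the survivin gene of the chromosomal passenger complex, had levels of 12.4 and 28.2 CPM (young Treg), 125 and 109 CPM (labelled Treg), 9.41 and 16.3 CPM (young Tconv) and 69.2 and 62.4 CPM (labelled Tconv) (log2 fold change 2.44 with SE 0.287, adjusted p 0.00559 in edgeR). Rrm2, which makes deoxynucleotides for replication, rose by 2.42 (SE 0.241, adjusted p 0.00437), with 2.42 in Treg and 2.42 in Tconv. Cks2, a cyclin-dependent kinase subunit gene, rose by 1.27, the centromere histone gene Cenpa by 0.78 and the helicase loader gene Cdc6 by 2.09. The counts were 19 to 21 for mitosis and 18 to 21 for replication when any 1 library was left out. With the macrophage term they were 11 and 4, and with the erythroid or sex term 0 and 0. With the sex term the log2 fold changes were as large, at 2.61 for Birc5 and 2.54 for Rrm2, whereas with the erythroid term they were 1.25 and 1.43. Erythroid and neutrophil markers were higher in the same libraries, and their part in these counts was not tested beyond the fits with a marker term.

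The promoters of most mitosis genes held a short sequence. In the 250 bases before the RefSeq start (GRCm38.p6), 15 of the 18 mitosis genes with an entry held CCAAT on either strand (83.3%), against 35.7% of the autosomal genes tested and 34.5% of all promoters in the table, and 6 of the 18 held TTTGAA, the letters of the cell cycle homology element (33.3% against 10.7%). Of 17 replication genes called with an entry 10 held CCAAT (58.8%) and 2 held TTTGAA (11.8%). The promoters of Birc5 and of Tacc3, which rose by 1.55, were looked at along with the 2 below and held neither sequence. The 2 promoters below show the CCAAT box, the site known for the factor NF-Y, in genes that rose in all 4 labelled libraries, and capitals mark it (ATTGG is CCAAT on the other strand). A match of letters is a description and not a bound site. The windows are Cenpa at chr5:30666636-30666885 and Cks2 at chr13:51644982-51645231, both on the plus strand.
Cenpa: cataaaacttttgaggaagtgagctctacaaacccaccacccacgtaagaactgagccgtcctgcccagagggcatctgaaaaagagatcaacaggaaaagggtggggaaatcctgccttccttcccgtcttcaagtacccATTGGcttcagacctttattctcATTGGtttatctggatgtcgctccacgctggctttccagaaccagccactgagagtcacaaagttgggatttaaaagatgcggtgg
Cks2: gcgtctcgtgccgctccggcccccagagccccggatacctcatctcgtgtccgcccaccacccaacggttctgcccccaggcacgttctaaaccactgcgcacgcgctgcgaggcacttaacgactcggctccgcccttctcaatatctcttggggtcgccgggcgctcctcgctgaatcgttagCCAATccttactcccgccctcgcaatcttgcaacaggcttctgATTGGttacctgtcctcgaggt

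Interferon-induced genes rose in part. Of 28 tested members of the list 15 were called higher and 0 lower, against 13.5% and 15.7% over all autosomal genes. The median log2 fold change of the list was 0.52. Oas1a, a sensor of double-stranded RNA, measured 40.3 and 41.2 CPM in the young Treg libraries, 90.7 and 102 CPM in the labelled Treg, 29.5 and 34.4 CPM in the young Tconv and 71.4 and 69.2 CPM in the labelled Tconv libraries (log2 fold change 1.19 with SE 0.0735, adjusted p 0.00131 in edgeR). Rsad2, the viperin gene, rose by 2.07, Irf7, a transcription factor of the response, by 0.72, and the RNA sensor genes Ifih1 and Dhx58 by 0.56 and 0.57. The count of 15 was 8 without young Tconv 1 or labelled Tconv 1, 9 without labelled Treg 1 or labelled Tconv 2, and 1 with the macrophage term. The letters GAAA, any 2 bases and GAAA again, the core of the interferon-stimulated response element, were found on either strand in 4 of the 12 called members with a promoter entry (33.3%), against 2.75% of the autosomal genes tested. The Oas1a promoter is shown because it carries 2 overlapping matches, in capitals, at chr5:120907526-120907775 on the minus strand; its RefSeq start is not a transcript start in GENCODE M21.
Oas1a: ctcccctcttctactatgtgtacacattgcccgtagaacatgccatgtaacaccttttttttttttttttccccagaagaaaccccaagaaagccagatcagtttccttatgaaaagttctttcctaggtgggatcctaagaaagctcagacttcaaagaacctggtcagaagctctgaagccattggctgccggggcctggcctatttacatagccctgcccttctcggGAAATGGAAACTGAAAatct

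Ribosomal protein genes fell together by a smaller amount. Of 36 tested autosomal genes of the large subunit 31 were called lower and 0 higher, with a median of -0.43. Of 21 of the small subunit 18 were called lower and 1 higher, with a median of -0.47. The shares over all autosomal genes were 15.7% lower and 13.5% higher. Apart from Rpl29, the largest decrease among those called was that of Rpl12, at -0.75. Rpl13 had levels of 1699 and 1671 CPM (young Treg), 1074 and 1037 CPM (labelled Treg), 1988 and 2003 CPM (young Tconv) and 1464 and 1412 CPM (labelled Tconv) (log2 fold change -0.57 with SE 0.0671, adjusted p 0.00559 in edgeR). Rpl22 fell by 0.57 as well. The 1 member that rose, Rps27l, is known as a p53 target and rose by 0.75. Without labelled Treg 1 the lower calls were 8 and 12, and without labelled Treg 2 they were 11 and 14, for the large and the small subunit, and the large subunit had 17 without labelled Tconv 1. With the macrophage term they were 1 and 0, while the medians stayed at -0.35 and -0.41. Because CPM is a share of a library, fewer ribosomal transcripts per cell and fewer cells rich in them cannot be told apart here.

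Genes of the senescence programme moved in both directions. Cdkn1a, which encodes the cell cycle inhibitor p21, measured 1.27 and 5.70 CPM in the young Treg libraries, 62.4 and 46.1 CPM in the labelled Treg, 1.40 and 2.91 CPM in the young Tconv and 16.1 and 16.2 CPM in the labelled Tconv libraries (log2 fold change 3.45 with SE 0.524, adjusted p 0.00903 in edgeR). The labelled libraries lay far above the young ones in both cell types. Cdkn2a, the gene of p16 and p19, measured 0 and 0.605 CPM in the young Treg libraries, 10.2 and 5.93 CPM in the labelled Treg, 0 and 0.274 CPM in the young Tconv and 2.09 and 1.83 CPM in the labelled Tconv libraries (4.37, SE 0.941, adjusted p 0.0194), and its call was lost without labelled Treg 1 or 2, young Tconv 1 or labelled Tconv 1 or 2. The inhibitor gene Cdkn2c rose by 1.21 and Lmnb1, a nuclear lamina gene that falls in classical senescence, rose by 1.26. Cdkn1b, the p27 gene, fell by 0.53. Cdkn2c lost its call without labelled Treg 1 or labelled Tconv 2. With the macrophage term Cdkn1a, Cdkn2a, Cdkn2c and Lmnb1 lost theirs, and the log2 fold change of Cdkn2a was 1.42 (edgeR adjusted p 0.751). Cdkn2a also lost its call with the tag term (edgeR adjusted p 0.0502). In the fit over 12 libraries neither Cdkn1a nor Cdkn2a was called (edgeR adjusted p 0.0515 and 0.0657).

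Targets of p53 did not move as a block. Of 15 tested targets 4 were called higher and 3 lower, against 13.5% and 15.7% over all autosomal genes, with a median of 0.07. Phlda3, an inhibitor of AKT, measured 0.845 and 1.43 CPM in the young Treg libraries, 15.1 and 10.47 CPM in the labelled Treg, 1.03 and 0.549 CPM in the young Tconv and 6.71 and 5.96 CPM in the labelled Tconv libraries (log2 fold change 3.25 with SE 0.2998, adjusted p 0.00384 in edgeR). The stress sensor gene Sesn2 rose by 1.23 and Ei24 by 0.44, while Sesn1, Gadd45a and Xpc fell by 0.55, 0.54 and 0.23. The 3 lower calls were 0 without labelled Treg 1, young Tconv 1 or labelled Tconv 1 or 2, and 1 without labelled Treg 2 or young Tconv 2. Mdm2, the ligase gene that p53 induces, had a value of 0.02 and was not called. Of 21 tested secreted factors of senescent cells 4 were called higher, Cxcl10, Ccl5, Csf2 and Areg, against 13.5% over all autosomal genes. The count was 1 without labelled Treg 1, young Tconv 1 or labelled Tconv 1 or 2. It was 2 without labelled Treg 2 or young Tconv 2.

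Genes against oxidative stress were called higher more often than lower. Of 31 tested genes of the antioxidant and glutathione list 14 were called higher and 1 lower, against 13.5% and 15.7% over all autosomal genes. The median log2 fold change of the list was 0.51. Srxn1, which repairs peroxiredoxins, had levels of 1.88 and 5.23 CPM (young Treg), 18.5 and 16.6 CPM (labelled Treg), 1.17 and 1.21 CPM (young Tconv) and 4.33 and 4.09 CPM (labelled Tconv) (log2 fold change 2.07 with SE 0.324, adjusted p 0.00964 in edgeR). The thioredoxin gene Txn1 rose by 1.00, the glutaredoxin gene Glrx by 0.98 and the peroxiredoxin gene Prdx2 by 0.51. Txnip, the inhibitor of thioredoxin, fell by 0.80. Gstp1, a glutathione transferase gene, measured 151 and 142 CPM in the young Treg libraries, 152 and 148 CPM in the labelled Treg, 146 and 153 CPM in the young Tconv and 166 and 156 CPM in the labelled Tconv libraries and was not called (0.07, adjusted p 0.262). Of 5 tested autosomal genes of the NADPH oxidase, the enzyme that makes superoxide, 0 were called by edgeR and by limma, 2 had an unadjusted p under 0.05, and 1 was called lower by DESeq2 and by edgeR without labelled Tconv 1. The 14 higher calls were 4 without labelled Treg 1, 5 without labelled Treg 2, 7 to 9 without young Treg 2, young Tconv 1 or labelled Tconv 1 or 2, and 0 with the macrophage term. Red cells are rich in Prdx2, and their markers were higher in the same libraries.

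Metabolic and protein handling lists moved by small amounts. Their counts stand beside 13.5% called higher and 15.7% called lower over all autosomal genes. Of 28 tested proteasome genes 16 were called higher, with a median of 0.19, and 5 to 10 without young Tconv 1 or 2, labelled Treg 1 or labelled Tconv 1 or 2. Of 41 genes of oxidative phosphorylation 8 were called higher, with a median of 0.13, 1 without labelled Treg 1, young Tconv 1 or labelled Tconv 1, and 3 or 4 without labelled Treg 2, labelled Tconv 2 or young Treg 2. Of 17 glycolysis genes 5 were called higher and 1 lower, the glucose transporter gene Slc2a1 at -0.29. Of 57 genes of the mitochondrial ribosome 5 were called higher and 3 lower, which is under the shares over all genes. Of 20 genes of the unfolded protein response and heat shock 5 were called higher, the endoplasmic chaperone genes Calr, Canx, Pdia3, Hsp90b1 and Sdf2l1, and 1 lower. The higher calls of these 3 lists were 1 each without labelled Treg 1. Of 12 autosomal genes of cholesterol synthesis 0 were called by edgeR, 4 had an unadjusted p under 0.05, limma called 1 lower and DESeq2 2.

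**Figure D3:**
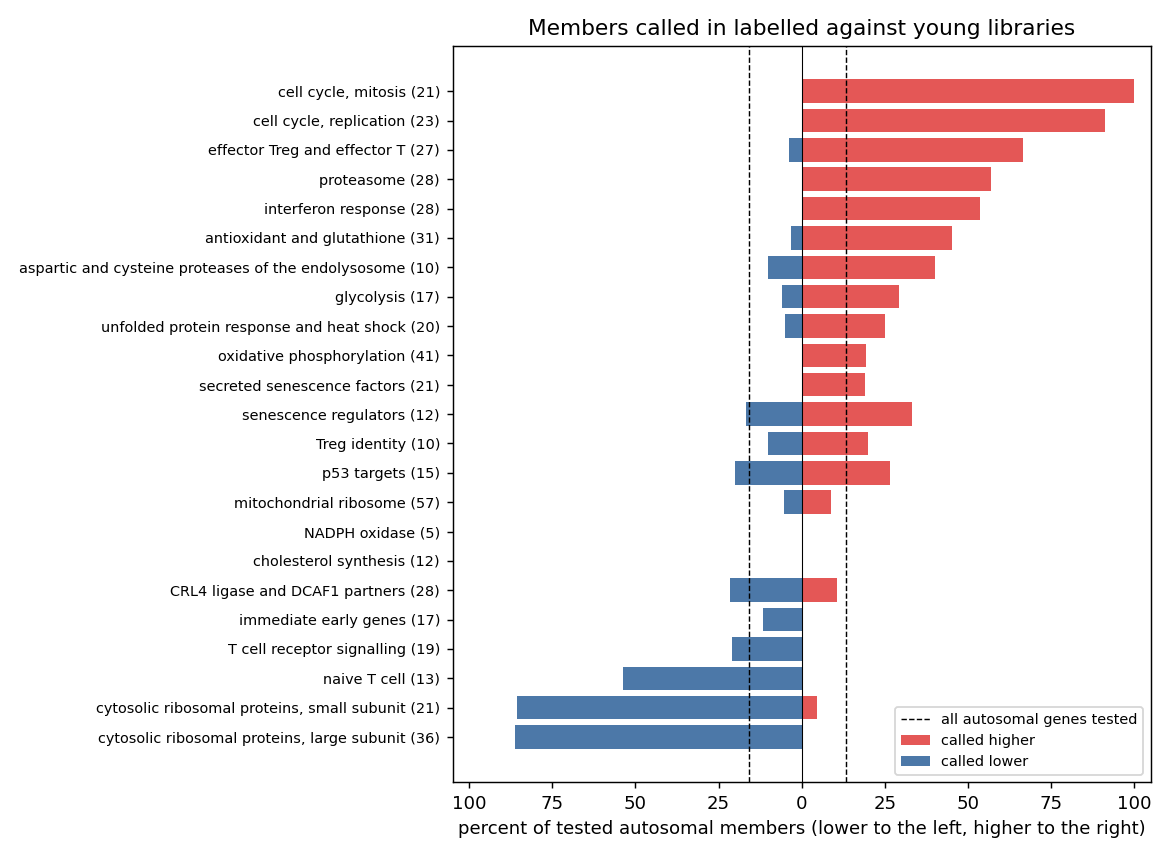
Share of the tested autosomal members of 23 gene lists that were called higher (right) or lower (left) in labelled libraries, in percent of the members tested, whose number follows each name; dashed lines mark the shares over all autosomal genes tested (13.5% higher, 15.7% lower). The mitosis bar reaches all 21 members, and the ribosomal protein lists extend farthest to the left.

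Genes of naive T cells were called lower and those of effector T cells higher, each in part of its list. Of 13 tested naive T cell genes 7 were called lower and 0 higher, with a median log2 fold change of -0.55. Of 27 effector genes 18 were called higher and 1 lower, with a median of 0.92. Over all autosomal genes the shares were 15.7% lower and 13.5% higher. Foxp1, a keeper of quiescence, had levels of 389.6 and 376 CPM (young Treg), 248 and 241 CPM (labelled Treg), 458 and 429 CPM (young Tconv) and 286 and 270.2 CPM (labelled Tconv) (log2 fold change -0.66 with SE 0.0464, adjusted p 0.00173 in edgeR). Satb1, a chromatin organiser, fell by 0.82, Bach2, a repressor of effector genes, by 0.55 and the lymph node homing receptor gene Ccr7 by 0.36. Klrg1, a receptor of terminal effector cells, measured 31.7 and 38.2 CPM in the young Treg libraries, 137 and 133 CPM in the labelled Treg, 5.24 and 6.53 CPM in the young Tconv and 44.1 and 46.2 CPM in the labelled Tconv libraries (log2 fold change 2.43, SE 0.220, adjusted p 0.0037). The effector regulator gene Prdm1 rose by 0.92 and S100a6 by 2.07. The 1 effector gene that fell was Il10, the cytokine gene, which went from 13.1 and 10.97 to 4.47 and 3.66 CPM in Treg (-1.29 in the shared test). The naive count was 2 without labelled Treg 1, 1 without labelled Treg 2 and 4 without labelled Tconv 1, and the effector count 12 to 18 without any 1 library.

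T cell receptor genes had larger differences in Treg than in Tconv, although no interaction passed the test. The 19 tested receptor signalling genes had a median of -0.38. Of them 4 were called lower and 0 higher, against 15.7% and 13.5% over all autosomal genes. Among the 4 were Prkcq, Cd28 and Cd247, each a part of the signal from the receptor or its costimulation. The lower calls were 0 without labelled Treg 1 or 2, young Tconv 1 or labelled Tconv 1 or 2. They were 2 without young Treg 2. Averaged over the list, log2 CPM came to 9.23 and 8.70 in the young Treg libraries, 8.24 and 8.16 in the labelled ones, 9.44 and 9.35 in the young Tconv libraries and 9.30 and 9.30 in the labelled ones. Cd3e had log2 fold changes of -0.94 in Treg and -0.08 in Tconv (interaction adjusted p 0.401). Of 10 tested autosomal Treg identity genes 2 were called higher, the integrin gene Itgae at 1.63 and Capg at 0.75. The Treg receptor gene Gpr83 was the 1 called lower, at -0.91. These counts are near the shares over all autosomal genes, 13.5% higher and 15.7% lower. Gpr83 and Capg lost their calls without labelled Treg 1 and without labelled Tconv 1, among others. Foxp3 (-0.32, adjusted p 0.455) and Il2ra, the CD25 gene (-0.34, adjusted p 0.357), were not called. Fewer T cells in a sort and less T cell RNA per cell cannot be told apart in bulk samples. Markers of macrophages, red cells and neutrophils were highest in the labelled Treg libraries, where these T cell genes were lowest.

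**Figure D4:**
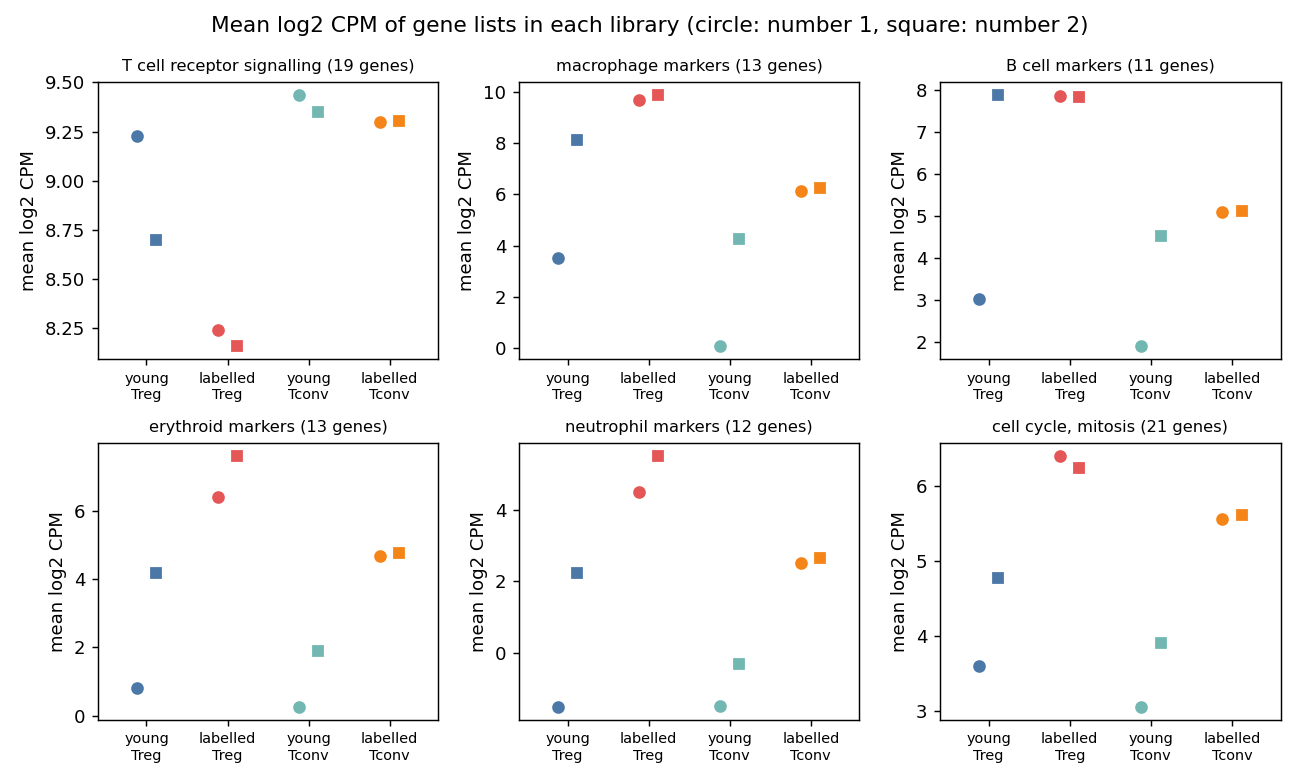
Mean log2 CPM of the tested members of 6 gene lists in each of the 8 libraries (circles, libraries numbered 1; squares, libraries numbered 2). The labelled libraries are high for macrophage, erythroid, neutrophil and mitosis genes, young Treg 2 and young Tconv 2 lie above their number 1 partners for these lists, and T cell receptor genes run the other way in Treg.

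The Treg and Tconv differences were set side by side. Within Treg 808 genes were called higher (9.34%) and 1114 lower (12.9%), within Tconv 88 higher (1.02%) and 40 lower (0.462%), and 98 were called the same way in both. All 2534 genes called in the shared test had the same sign in both cell types, which the rule on shifts in part fixes, and the Tconv value was the larger one in 467 of the genes called higher and 279 of those called lower. Across autosomal genes, which are not independent replicates, the values correlated with a Pearson r of 0.736 and a Spearman rho of 0.713. No gene was called for the interaction of label and cell type by edgeR (0%) or by limma, 1032 had an unadjusted p under 0.05, and DESeq2 called 208. The edgeR interaction count was 1178 without young Treg 2. Labelled and young libraries stood apart in opposite directions, without a test, in 173 genes higher in Treg and lower in Tconv and in 215 the other way.

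**Figure D5:**
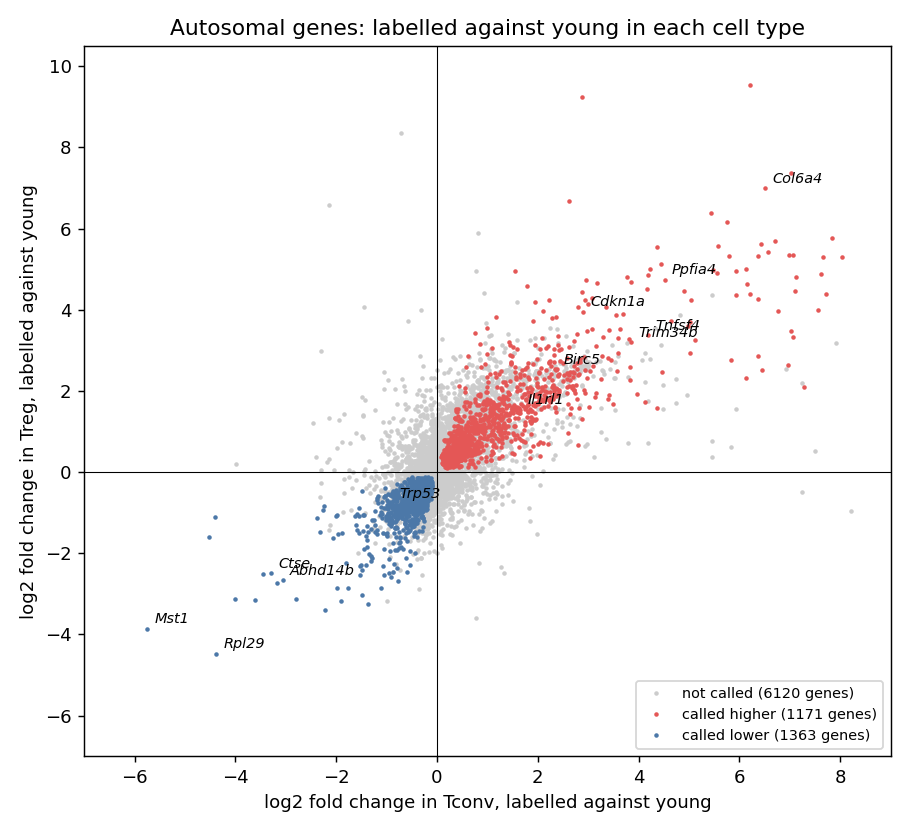
Log2 fold change in Treg against that in Tconv (labelled against young) for each autosomal gene tested; 1171 genes called higher and 1363 called lower are coloured and the rest are grey. Rpl29, at -4.47 in Treg and -4.38 in Tconv, and Mst1, at -3.86 and -5.76, lie at the lower left, and Col6a4 and Ppfia4 at the upper right.

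Levels in aged wild-type libraries put several of these genes beside age; any difference from young would share the young libraries, so none was tested. Ctse, at 51.5 to 104 CPM in the aged libraries, lay beside the 60.7 to 102 CPM of the labelled ones, and Foxp1, at 237 and 73.8 CPM in aged Treg and 219.9 and 70.6 CPM in aged Tconv, was no higher than in the labelled ones. Cdkn1a was at 51.8 and 21.4 CPM in aged Treg and 13.7 and 47.7 CPM in aged Tconv, above all young libraries. Tnfsf4 was at 15.6 and 4.87 CPM in aged Treg and 4.88 and 11.2 CPM in aged Tconv, and Oas1a at 90.7 and 176 CPM and at 68.6 and 85.0 CPM. Rpl29, Trp53 and Col6a4 were closer to the labelled level in aged Treg 1 than in the other aged libraries: Trp53 was at 131 and 197 CPM in aged Treg and 198 and 167 CPM in aged Tconv. Il10 differed in the other direction, at 18.3 and 144 CPM in aged Treg and 104.6 and 167 CPM in aged Tconv.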

How the data were processed

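Per the submitters' processing notes, reads were quantified with Salmon 0.9.1 and scaled with DESeq2 on mm10; the annotation is not given in the sources used here. The authors deposited estimated counts per gene and, in a second table, log2 values whose transform is not stated. Both tables map 12 columns to 12 samples by title, with 0 columns unmapped. Of the estimated counts 23.5% were whole; they were rounded and tested in R 4.3.3 with edgeR 4.0.16 (glmQLFit, glmQLFTest, TMM, filterByExpr, 5 residual degrees of freedom), a procedure also tested on simulated data. CPM uses TMM-scaled totals, and log2 CPM adds a prior count of 2. Coordinates are from GENCODE M21 (13134 symbols, 241 more through RefSeq synonyms; 25 rows, some with names turned into dates, matched nothing). Libraries of a pair all differed beyond sampling noise and were kept as 2.

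The libraries, the 33 gene lists and the tests were chosen with earlier results of these data known. Genes named were the 15 largest increases and decreases among called genes with groups apart and at least 4 CPM in a group, up to 4 called members per list by smallest adjusted p, up to 5 genes near Dcaf1 and a preset set (Vprbp, Rpl29, Ctse, Cul4a, Cul4b, Foxp3, Il2ra, Cdkn1a, Cdkn2a, Gstp1 and others); the 20 genes called in nearly every fit, list members named in full where 5 or fewer were called, and others such as Rsad2, Il10, Txnip and Rpl12 were added after their values were seen. Alternatives were RLE factors, no filter, DESeq2 1.42.0, limma 3.58.1 on the deposited log2 values, a fit over 12 libraries, replicate blocks, terms for the title tag and marker levels, and leaving out each library; a sex term and leaving out both young libraries of a number were added after seeing the data.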

Additional observations from a re-analysis of the deposited data

Results flagged for a closer look

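Xist, which the comparisons did not use, was at 1661 CPM in labelled Treg 2, 1317 CPM in labelled Tconv 1 and 1336 CPM in labelled Tconv 2, against 1.37 CPM in labelled Treg 1 and at most 2.64 CPM in the 4 young libraries. Y-linked genes ran the other way, with Ddx3y at 187 CPM in labelled Treg 1, 196 to 329 CPM in the young libraries and at most 0.589 CPM in the other 3 labelled ones. The labels give no sex.

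The mean log2 CPM of the tested Treg identity genes was 0.369 lower in labelled than in young Treg (-0.369) and 0.498 higher in labelled than in young Tconv. In each cell type both labelled libraries lay on one side of the young mean, but the Treg groups overlapped, with young Treg 2 at 7.93 below labelled Treg 1 at 7.99. The difference between the cell types in this list was not tested.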

How the results depend on the processing

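Of 124 named genes called, all 124 kept their call with RLE factors, DESeq2 and limma on the deposited values, 121 without the filter, 91 with the tag or the B cell term, 82 without labelled Treg 1 and 82 without labelled Treg 2, 19 with the macrophage term, 18 in the fit over 12 libraries and 1, Rpl29, with the erythroid or the sex term. Counts of genes called higher and lower were 548 and 524 with the tag term, 674 and 444 with the B cell term (interaction 432), 49 and 17 with the macrophage term, 0 and 1 with the erythroid term (interaction 3), 0 and 1 with the sex term, 49 and 34 over 12 libraries, and 534 and 124 at a log2 fold change of at least 1. Leaving out both young libraries numbered 2 gave 1899 higher and an interaction count of 1362, and leaving out both numbered 1 gave an interaction count of 22; DESeq2 gave 208. Over the fits without 1 library, counts ran from 446 to 1417 higher and from 290 to 1258 lower, both lowest without labelled Treg 1, and from 0 to 1178 for the interaction. Without labelled Treg 2 they were 530 and 343, without young Tconv 1 545 and 454, without labelled Tconv 1 559 and 523, and without labelled Tconv 2 578 and 550. In all, 397 genes called higher and 259 called lower kept their call in each of these fits. The causes were not tested.

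With the replicate number as a block, 1336 genes were called higher, 1358 lower and 0 for the interaction, and with same-numbered libraries of a condition as a unit in limma-voom 1435, 1282 and 0. The number 1 minus number 2 differences correlated at 0.709 between young Treg and young Tconv but at 0.0455 between labelled Treg and labelled Tconv, so the numbers were not taken to pair libraries.

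Signs turned with the erythroid term for Prkcq (0.060), Cd28 (0.13), Cd247 (0.11), Ddb2 (0.061), Il2ra (0.087), Foxp3 (0.46), Cul4a (-0.039), Ctss (-0.15), Csf2 (-0.58), Kdr (-0.56), Ccl5 (-0.45), Klrk1 (-0.65), Axl (-0.084), Ncr1 (-0.14), Clec1b (-0.95), Cd5l (-0.84), Aqp1 (-0.028) and Smr3a (-2.79). They turned with the macrophage term for Aqp1 (-0.26) and with the sex term for Cul4a (-0.052). With 2 libraries a group, small changes in genes of few counts are beyond this depth.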
